A study of Homo sapiens with 4 samples.

Results

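The IFIT genes lie side by side on chromosome 10, and every ATAC-seq peak listed over them was collected from 4 libraries of HK1 cells. The 5 protein-coding genes are, in the order of the plus strand, IFIT2 (chr10:89283694-89309271), IFIT3 (chr10:89327307-89377473), IFIT1B (chr10:89378056-89385205), IFIT1 (chr10:89392546-89406487) and IFIT5 (chr10:89414568-89421605). A peak belonged to a gene when it overlapped the GENCODE gene body or the 10 kb upstream of it (GRCh38), and together these windows spanned chr10:89273694-89421605, or 147.9 kb. The windows held 11 of 59629 peaks in WT, 13 of 67470 in WT-IFN-γ, 11 of 63203 in sgFLI1 and 11 of 59923 in sgFLI1-IFN-γ, which merged into 15 of the 93211 regions of the series. The regions are numbered 1 to 15 along the plus strand.

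HK1 is an established human nasopharyngeal carcinoma line. The 4 groups, with 1 library each, were wild-type cells (WT), the same line carrying a guide RNA knockout of FLI1 (sgFLI1, also called FLI1-KO), and both of these after interferon-γ (IFN-γ) treatment (WT-IFN-γ and sgFLI1-IFN-γ). The labels give no dose or time for IFN-γ, and a figure legend of the study gives a day. Where 4 values stand in a row without names, they follow that pairing, WT without and with IFN-γ and then FLI1-KO without and with it. ATAC-seq uses a transposase that inserts sequencing adapters into open DNA, so that a peak marks accessible chromatin and does not measure RNA or protein. The knockout itself could therefore not be checked from these lists, and the sources used here do not say whether the FLI1-KO cells were 1 clone or a pool. With 1 library a group there was no replicate spread to set a difference against and no test was run; all intervals are 95% intervals of counting error within libraries, taken from tags that carry no molecular identifiers. The promoters of 5 of 5 epithelial genes looked at (EPCAM, CDH1, KRT5, KRT18 and GRHL2) held a peak in every list. These genes were chosen after the lists were seen, so this is no test of the line's identity. A peak was common in any case, in the gene body or 10 kb upstream of 82.7 to 84.0% of protein-coding genes.

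IFIT proteins are cytoplasmic antiviral proteins built of tetratricopeptide repeats. IFIT1 binds viral RNA that lacks the methylation of a host cap and blocks its translation, IFIT2 and IFIT3 bind to it in larger complexes, IFIT5 also binds RNA, and IFIT1B is a close relative of IFIT1 of less certain role. The genes are textbook interferon-stimulated genes, on which interferons act in part through transcription factors of the IRF family. IRF proteins bind pairs of GAAA at a fixed spacing. FLI1 is a transcription factor of the ETS family.

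The promoter sequences are shown because such pairs stand beside the start sites of 3 of the 4 members with an entry. An IRF pair was defined as GAAANNGAAA on either strand (N, any base), and matches may share bases with other motifs. RefSeq promoter windows (GRCh38.p14, 250 bases before to 50 after a start) were matched for IFIT3, with 2 starts, IFIT1B, IFIT1 and IFIT5. IFIT2 had no entry. The 4 longer stretches end before the first annotated exon base, and the 3 of 30 bases show pairs that reach or lie in an annotated exon. All run 5′ to 3′ on the plus strand, and carry the IRF pairs in capitals, which read GAAANNGAAA on the minus strand.
IFIT3, chr10:89327747-89327940: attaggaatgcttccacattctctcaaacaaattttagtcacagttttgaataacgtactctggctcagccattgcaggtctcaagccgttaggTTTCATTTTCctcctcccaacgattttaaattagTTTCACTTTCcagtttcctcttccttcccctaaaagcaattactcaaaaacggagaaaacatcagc
IFIT3 internal start, chr10:89332279-89332483: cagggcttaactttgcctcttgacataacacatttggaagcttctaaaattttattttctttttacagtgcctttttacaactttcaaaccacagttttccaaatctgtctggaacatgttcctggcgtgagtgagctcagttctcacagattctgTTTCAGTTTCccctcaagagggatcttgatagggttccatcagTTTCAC
IFIT3 internal start, second pair, chr10:89332468-89332497: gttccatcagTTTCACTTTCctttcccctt
IFIT1B, chr10:89377806-89378055: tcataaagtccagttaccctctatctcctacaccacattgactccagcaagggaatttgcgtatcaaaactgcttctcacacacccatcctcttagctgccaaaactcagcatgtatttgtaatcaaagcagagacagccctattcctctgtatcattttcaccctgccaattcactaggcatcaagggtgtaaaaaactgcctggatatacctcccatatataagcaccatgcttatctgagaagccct
IFIT1, chr10:89392373-89392545: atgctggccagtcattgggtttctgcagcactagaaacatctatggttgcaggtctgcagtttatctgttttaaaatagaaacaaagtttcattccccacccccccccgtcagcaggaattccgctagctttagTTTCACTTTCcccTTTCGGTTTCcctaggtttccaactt
IFIT5, first pair, chr10:89414513-89414542: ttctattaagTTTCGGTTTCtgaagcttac
IFIT5, other pairs, chr10:89414547-89414576: agTTTCGATTTCttaagTTTCAGTTTCtga
The IFIT3 window held 2 IRF pairs, at -156 to -147 and -122 to -113 bp of the start. The internal IFIT3 window also held 2, at -94 to -85 and -51 to -42 bp. In IFIT1 the 2 pairs lay at -116 to -107 and -103 to -94 bp. IFIT5 held 3, at -45 to -36, -19 to -10 and -4 to 5 bp, so that the last one spans the start itself. The IFIT1B window held none. Among all 35116 RefSeq promoter windows, 3.57% held an IRF pair, 0.259% at least 2 and 0.0370% at least 3. The pair GAAAGTGAAA stood in 3 of the 5 windows (both of IFIT3, and IFIT1) and in 0.202% of all windows. GAAACCGAAA was shared by IFIT1 and IFIT5 (0.108% of all windows), and GAAACTGAAA by the internal start of IFIT3 and IFIT5 (0.265%). None of the 5 windows held the ETS pattern CCGGAAGT, which 4.14% of all windows held.

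The promoters of IFIT2, IFIT3, IFIT1 and IFIT5 were open in every library, and that of IFIT1B in none of them. Listed peaks numbered 6, 5, 6 and 6 in the IFIT2 window, 3, 5, 3 and 3 in that of IFIT3, and 1, 2, 1 and 1 in that of IFIT1. The IFIT5 window held 1 peak in each list, and the IFIT1B window 1 in each list but sgFLI1-IFN-γ, where it held 0. That IFIT1B peak lay 8.36 kb before its start, inside the body of IFIT3, and counts for both genes. The windows of all 19970 protein-coding genes held a median of 2 peaks in each library, and IFIT2 and IFIT3 held more than that in every library. LIPA, which encodes lysosomal acid lipase on the minus strand, is annotated across nearly the whole cluster, so a peak cannot be assigned to 1 gene by position alone.

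**Figure D1:**
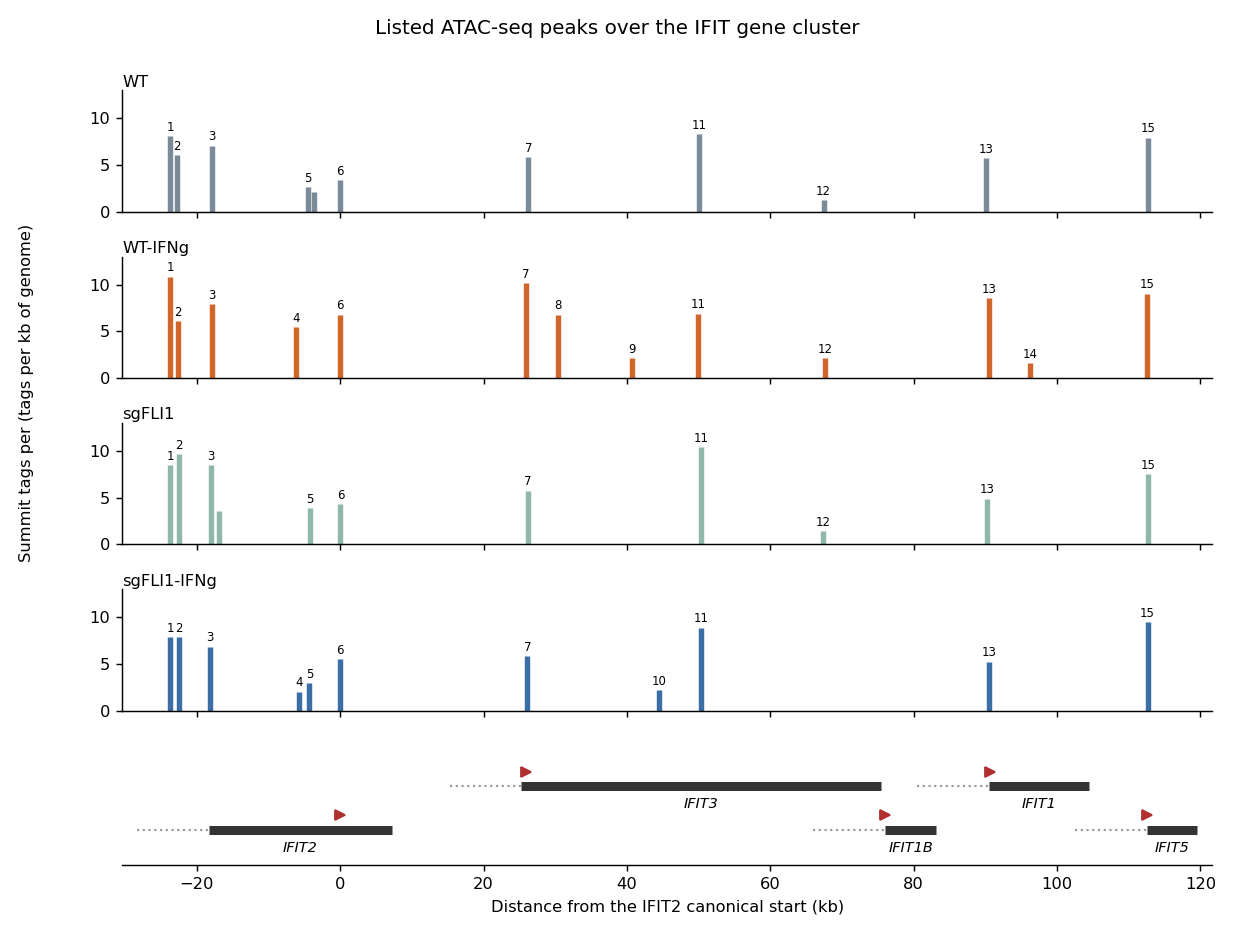
Peaks of the 4 libraries over the IFIT cluster. The x axis is the distance in kb from the canonical start of IFIT2; each vertical line is a listed peak at its summit, with its scaled pileup (tags at the summit divided by the library's tags per kb of genome) as height and its region number above; gene bodies are dark bars, the 10 kb upstream dotted, and arrowheads mark canonical starts. Regions 8, 9 and 14 appear in WT-IFN-γ alone, and no line stands at the start of IFIT1B.

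The number of tags over each summit (the summit pileup) was recovered as a whole number from the deposited fold and −log10 p. To compare libraries it was divided by the library's own tag density, equal to 8.04, 8.84, 6.93 and 6.86 tags in each kb of genome. This quotient is called the scaled pileup. Peaks that overlapped one to one between lists gave the background for ratios, with medians of 0.953 for WT-IFN-γ over WT, 0.910 for sgFLI1-IFN-γ over sgFLI1, 0.986 for sgFLI1-IFN-γ over WT-IFN-γ and 1.03 for sgFLI1 over WT. Within 5 Mb of the cluster the same medians were 0.970, 0.919, 1.01 and 1.07, over 227, 229, 225 and 210 peaks.

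IFN-γ in WT cells was the first comparison, and here the IFIT2, IFIT3 and IFIT1 promoters were more open with IFN-γ. At the IFIT2 promoter (region 6, chr10:89301438-89302651, over the canonical start) the summit carried 27 tags in WT and 60 in WT-IFN-γ. The ratio of scaled pileups was 2.02 (1.26 to 3.31), above 98.3% of all one-to-one peaks. It was the only promoter of the cluster past 2-fold, as were 1.80% of one-to-one peaks.

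At the IFIT3 promoter (region 7, chr10:89327441-89328581) the tags numbered 47 in WT and 90 in WT-IFN-γ. The ratio was 1.74 (1.21 to 2.54), above 96.8% of one-to-one peaks. The IFIT1 promoter (region 13, chr10:89391954-89393346) carried 46 and 76 tags, and its ratio was 1.50 (1.03 to 2.22), above 93.9%. The intervals of these ratios lie above 1. As in every ratio here, the summit of each list was used, and the 2 summits lay 395 bp apart at IFIT3 and 420 bp at IFIT1. These ratios therefore compare peak heights and not the tags at a fixed position. Their intervals do not allow for the choice of the summit in each list. At the IFIT5 promoter (region 15, chr10:89414032-89415423, which also covers an alternative start of LIPA) the tags numbered 64 and 80. Its ratio of 1.14 (0.809 to 1.61), above 77.9%, has an interval that includes 1. Summed over the 4 promoters the ratio was 1.51 (1.26 to 1.83).

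Summed over the 8 regions listed in all 4 libraries, which add 4 regions away from the canonical starts, the ratio was 1.27 (1.12 to 1.44). Region 1 (chr10:89277814-89278552, 23.7 kb before the IFIT2 start, on an exon of LIPA) carried 65 tags in WT and 96 in WT-IFN-γ, a ratio of 1.34 (0.971 to 1.87). Region 2 (chr10:89279055-89279769) carried 49 and 54, a ratio of 1.00 (0.669 to 1.51). Region 3 (chr10:89283503-89285470), which covers 3 upstream starts of IFIT2 and an exon of a lncRNA, carried 57 and 70, a ratio of 1.12 (0.777 to 1.61). Region 11 (chr10:89351090-89352633, in an intron of IFIT3, 24.4 kb past its start) was the one with fewer scaled tags, with 67 and 61 and a ratio of 0.829 (0.576 to 1.19). The intervals of these 4 distal ratios all include 1.

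**Figure D2:**
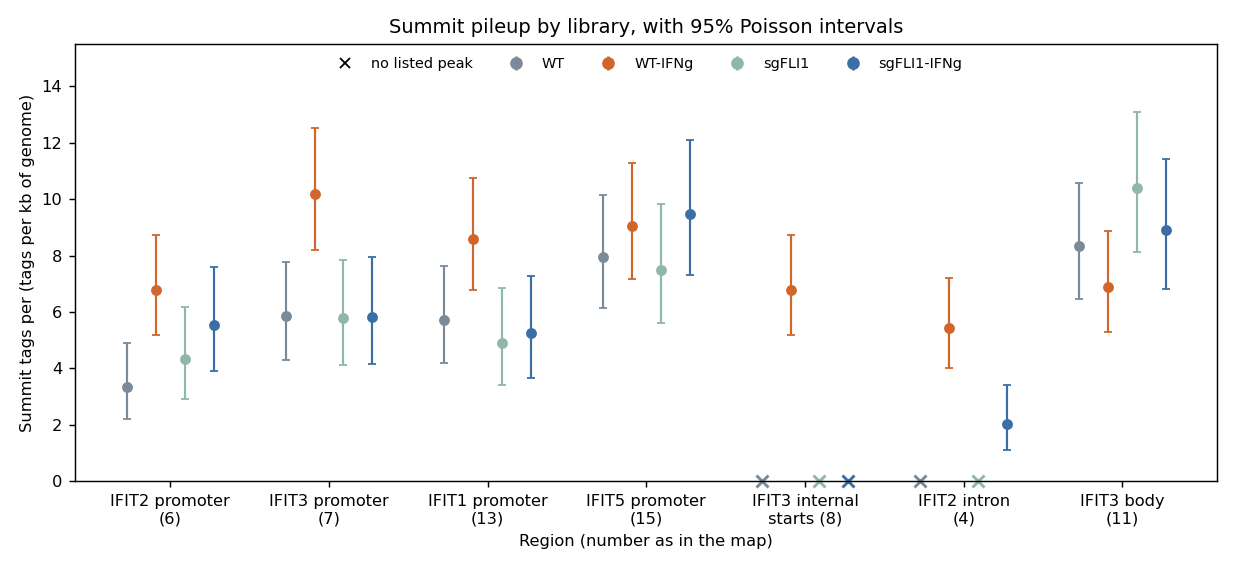
Scaled summit pileup (y axis, tags at the summit divided by the library's tags per kb of genome) at 7 regions of the cluster in the 4 libraries. Points are single libraries, bars are 95% exact Poisson intervals of counting error, and a cross on the axis marks a list with no peak. WT-IFN-γ stands highest at the IFIT2, IFIT3 and IFIT1 promoters, while at the IFIT5 promoter the 4 points lie between 7.50 and 9.47.

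New peaks appeared beside the promoters too. A peak of the treated list that shared no base with the untreated list of the same genotype is called gained, and the reverse lost. In WT, 4 of the 13 WT-IFN-γ peaks were gained (25.2% of all WT-IFN-γ peaks were) and 2 of the 11 WT peaks were lost (15.9% of all WT peaks were), so the cluster's shares were near those of the whole lists. By gene, 3 of the 5 windows held a gained peak (IFIT2, IFIT3 and IFIT1), against 32.0% of protein-coding genes. The median over all 16999 gained peaks was 14 tags, and 2 of the 4 gained peaks of the cluster carried many more.

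The strongest was region 8 (chr10:89332207-89332801), which covers 3 internal starts of IFIT3, with its summit 4.47 kb past the canonical one. It carried 60 tags (45.8 to 77.2) in WT-IFN-γ, more than 98.0% of gained peaks, and no other list held it. The same scaled signal would have been 54.6 tags in WT, where 23 would have been enough for a listed peak over the same scaled background. By that limit WT-IFN-γ was 2.37 times as high or more, taking the 60 tags without their counting error. Its local background was 12.4 tags.

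Region 4 (chr10:89295600-89296856) lies in an intron of upstream IFIT2 transcripts, 6.16 kb before the canonical start. It carried 48 tags (35.4 to 63.6), more than 96.0% of gained peaks. In WT the same scaled signal would have been 43.7 tags and 15 would have been listed, a limit of 2.91 times. The smaller gained peaks were region 9 (chr10:89342724-89343089, in an IFIT3 intron) with 19 tags and region 14 (chr10:89398096-89398670, in an IFIT1 intron, 5.69 kb past the start) with 14. Both lost peaks lay in region 5 (chr10:89297377-89298465, in IFIT2), with 21 and 17 tags in WT. At the same scaled signal they would have had 23.1 and 18.7 tags in WT-IFN-γ, where 17 were needed, so their loss is close to the limit of listing.

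Region 12 (chr10:89369132-89369982), the only one in the IFIT1B window, was among the weakest. It carried 10 tags in WT and 19 in WT-IFN-γ, a ratio of 1.73 with a wide interval (0.765 to 4.16).

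The same question was asked of the FLI1-KO cells, where the IFN-γ ratios of the IFIT promoters were all closer to 1 than in WT except at IFIT5. The IFIT2 promoter carried 30 tags without IFN-γ and 38 with it, a ratio of 1.28 (0.772 to 2.14), above 92.5% of one-to-one peaks. The IFIT3 promoter carried 40 in both, a ratio of 1.01 (0.635 to 1.61), above 67.4%. The IFIT1 promoter carried 34 and 36, a ratio of 1.07 (0.651 to 1.76), above 77.2%. In contrast to the other three, IFIT5 had a higher ratio than in WT, with 52 and 65 tags and 1.26 (0.864 to 1.86), above 91.6%. No promoter of the cluster was past 2-fold, as were 0.210% of one-to-one peaks. The sum over the 4 promoters gave 1.16 (0.930 to 1.45), and the 8 shared regions gave 0.967 (0.840 to 1.11). All these intervals include 1, while the background median in this comparison was 0.910.

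The difference between the genotypes' IFN-γ ratios was then taken directly. The WT ratio divided by the sgFLI1 ratio was 1.58 at IFIT2 (0.817 to 3.06), 1.73 at IFIT3 (0.983 to 3.03), 1.41 at IFIT1 (0.775 to 2.55) and 0.901 at IFIT5 (0.551 to 1.47). Each interval includes 1, so at this depth no single promoter separated the IFN-γ ratios of the genotypes beyond counting error.

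**Figure D3:**
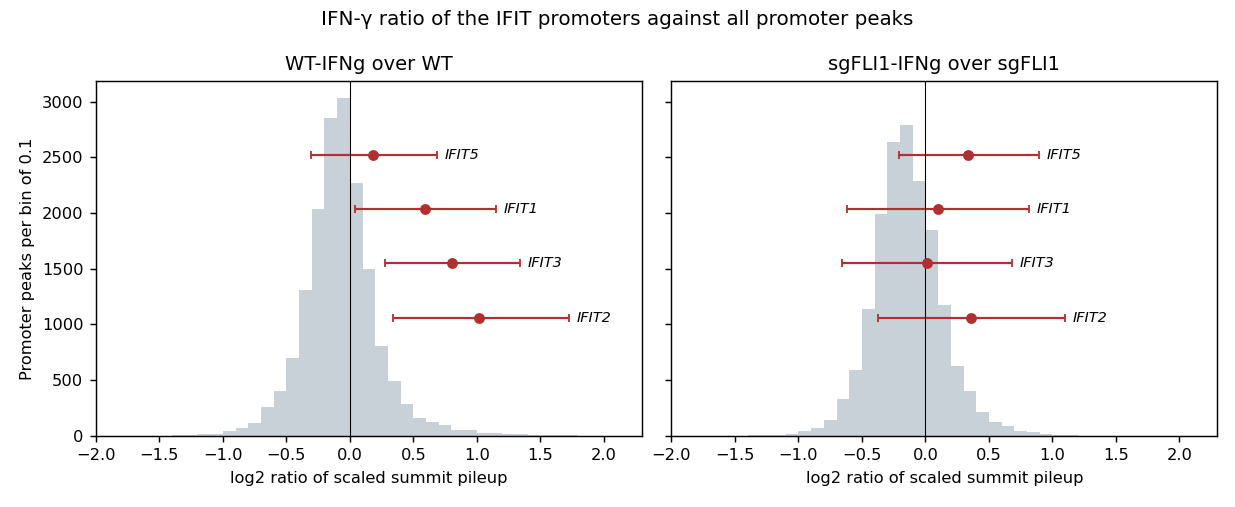
IFN-γ ratio of scaled summit pileup at the IFIT promoters (red points, with 95% counting intervals) over the distribution of all one-to-one promoter peaks (grey bars, number per bin of 0.1 on the log2 axis), in WT (left) and FLI1-KO cells (right). The height of the red points carries no value. In WT the IFIT2, IFIT3 and IFIT1 points lie in the upper tail with intervals above 0, and in FLI1-KO cells all 4 intervals cross 0.

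Gained peaks were fewer in the knockout in the cluster as in the whole lists, with 2 against 4 and 10776 against 16999. The highest gained peak of the cluster carried 15 tags against 60 in WT, or 2.19 against 6.79 as scaled pileup. The sgFLI1-IFN-γ library was also less deep, with 6.86 tags in each kb against 8.84 in WT-IFN-γ. Of 11 sgFLI1-IFN-γ peaks, 2 were gained (18.0% of the list were), and 1 of the 11 sgFLI1 peaks was lost (22.2% of the list were). The gained peaks fell in the windows of 2 of the 5 genes, IFIT2 and IFIT3 (22.9% of protein-coding genes had one). Region 4 was gained here as well, with 14 tags (7.65 to 23.5), where 12 would have been listed in sgFLI1, against a median of 11 over all 10776 gained peaks. Region 10 (chr10:89346433-89346758, in IFIT3) was found in this list alone, with 15 tags. The lost peak was region 12, with 10 tags in sgFLI1, which at the same signal would have had 9.90 where 7 were needed.

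With IFN-γ, the FLI1-KO cells were then set against WT. The IFIT3 promoter had 0.573 times the scaled pileup of WT-IFN-γ (0.384 to 0.840), with 5.71% of one-to-one peaks below it, and the IFIT1 promoter 0.610 times (0.399 to 0.919). The IFIT2 promoter stood at 0.816 (0.529 to 1.25) and the IFIT5 promoter at 1.05 (0.743 to 1.47). The summed promoters gave 0.754 (0.623 to 0.909), and the 8 shared regions 0.867 (0.761 to 0.987). Among regions listed in both, region 4 was lowest at 0.376 (0.191 to 0.693), with summits 420 bp apart. It was the only one of these past 2-fold downwards, as were 3.29% of one-to-one peaks.

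Among listed peaks, 4 of 13 WT-IFN-γ peaks had no counterpart in sgFLI1-IFN-γ, namely regions 8, 9, 12 and 14 (29.0% of the list had none), and 2 of 11 sgFLI1-IFN-γ peaks had none in WT-IFN-γ, namely regions 5 and 10 (19.8% of the list). At the same scaled signal region 8 would have had 46.6 tags in sgFLI1-IFN-γ, where 21 would have been listed, a limit of 2.22 times. Region 12 would have had 14.8 where 7 were needed, a limit of 2.11 times. These limits also leave out counting error, and region 12 carried 19 tags (11.4 to 29.7) in WT-IFN-γ. For regions 9 and 14 the corresponding tags were 14.8 and 10.9 with 11 and 7 needed, nearer to the limit of listing.

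Without IFN-γ the same regions of the cluster were listed in both genotypes. All 11 WT peaks overlapped an sgFLI1 peak and all 11 sgFLI1 peaks overlapped a WT peak, whereas 21.4% and 25.3% of the whole lists had no counterpart. The promoter ratios of sgFLI1 over WT were 1.29 at IFIT2 (0.741 to 2.25), 0.988 at IFIT3 (0.631 to 1.54), 0.858 at IFIT1 (0.534 to 1.37) and 0.943 at IFIT5 (0.641 to 1.38). No member region was past 2-fold downwards, as were 1.87% of one-to-one peaks. Region 2 had the ratio farthest from 1, at 1.59 (1.08 to 2.34), with 49 tags in WT and 67 in sgFLI1. The sum over the promoters was 0.984 (0.790 to 1.22).

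The place of the summit also differed between libraries, to an extent that did not follow the pileup ratio from promoter to promoter. At IFIT3 it lay 306 bp past the start in WT and 89 bp before it in WT-IFN-γ, 28 bp from the middle of the nearer IRF pair printed above. In sgFLI1 it lay at 212 bp and in sgFLI1-IFN-γ at 151 bp, both past the start. At IFIT1 the summit lay at -480 bp in WT and at -60 bp in WT-IFN-γ, and at -303 and -60 bp in the knockout, so here the IFN-γ summit was at the same base in both genotypes. The shifts in WT, 395 bp at IFIT3 and 420 bp at IFIT1, were longer than those of 96.7% and 97.1% of one-to-one promoter peaks, whose median was 46.0 bp. These promoter peaks were not matched for width or tags. Summits also moved without IFN-γ. From WT to sgFLI1 the shift was 78 bp at IFIT2, -94 bp at IFIT3, 177 bp at IFIT1 and 61 bp at IFIT5. In FLI1-KO cells the shifts were 61 bp at IFIT3 and 243 bp at IFIT1, longer than those of 57.5% and 92.1% (median 49.0 bp). At IFIT2 the WT summit shifted by 5 bp, from -31 to -26 bp. The IFIT5 summit lay 112 bp past the start in WT and 54 bp in WT-IFN-γ.

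**Figure D4:**
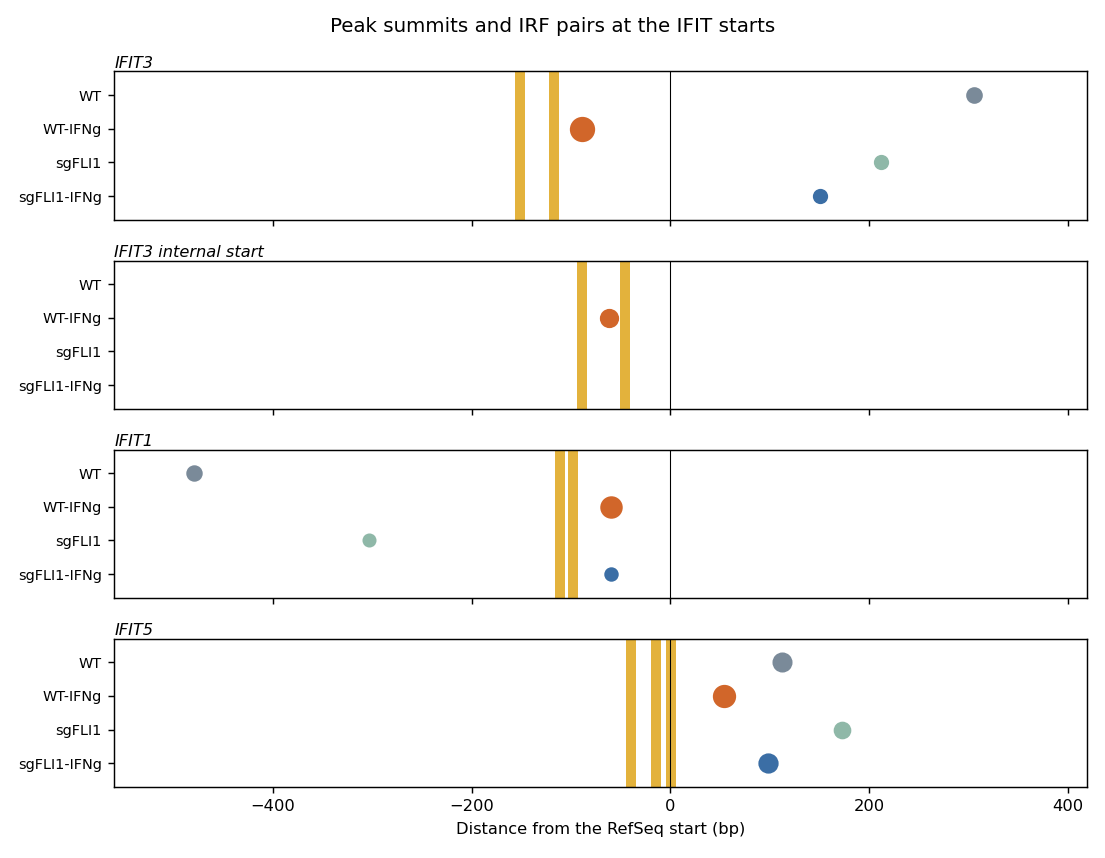
Summit position by library (dots, larger with more tags) and IRF pairs (yellow bands) at 4 RefSeq starts of the IFIT cluster; the x axis is the distance from the start in bp, and each row is 1 library. The WT-IFN-γ summit of IFIT3 stands beside the pairs at -89 bp while the other 3 lie past the start, and the internal start has a summit in WT-IFN-γ alone, 62 bp before the start and between its pairs.

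Over the cluster, an IRF pair lay within 100 bp of the summit for 7 of 13 WT-IFN-γ peaks (regions 1, 4, 6, 7, 8, 13 and 15), while 5.60% of that whole list had one. The counts were 2 of 11 in WT (2.35% of the list), 3 of 11 in sgFLI1 (2.24%) and 2 of 11 in sgFLI1-IFN-γ (2.67%). Both strong gained peaks of WT held 2 pairs each, the nearer centred 16 bp from the summit in region 8 and 43 bp in region 4, and the smaller ones, regions 9 and 14, held none; 13.4% of all gained peaks in WT held one. The sgFLI1-IFN-γ summit of region 4 had none within 100 bp. In 3 of 9 one-to-one peaks of WT cells a pair lay at the IFN-γ summit only (regions 7, 13 and 15), as in 1.27% of all one-to-one peaks, and in FLI1-KO cells this held for 0 of 8 (0.928% of all). One reference sequence was searched for all libraries, so these counts follow where the summits stood. The contrast between libraries was smaller at a wider distance. Within 250 bp the WT-IFN-γ count stayed at 7, while further summits of the other lists held a pair. These were regions 13 and 15 in WT, 6 and 15 in sgFLI1, and 1, 6 and 15 in sgFLI1-IFN-γ.

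The other motifs were searched at the same distance. The AP1 pattern TGANTCA was found at 2, 2, 3 and 4 summits, those of regions 1, 6, 11 and 15. It was common in the whole lists, where 21.9, 23.5, 24.3 and 23.2% of summits held it. The ETS pattern was found at none of the cluster's summits, and at 1.28 to 1.42% of all. With so few summits in the cluster, its absence there is near that share and says nothing particular about the cluster.

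The background that MACS estimates around a peak also differed at IFIT3. In WT it was 4.01 tags without IFN-γ and 12.1 with it, and in FLI1-KO cells 4.79 and 5.29. Scaled by tag density, the WT-IFN-γ background was 2.75 times that of WT, above 99.9% of one-to-one promoter peaks, and in the knockout the ratio was 1.12. The deposited fold enrichment divides by this background, so at IFIT3 it was lower with IFN-γ (6.94) than without (9.58) in WT, with 90 tags against 47. At IFIT1 the background ratio was 1.53 in WT, above 99.1%, and the fold went from 7.71 to 8.07. After subtraction of the background the scaled excess at IFIT3 was 5.35, 8.81, 5.08 and 5.06.

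A list of 40 other interferon-stimulated genes, among them MX1, OAS1, ISG15 and IRF1, gave the setting. In WT 24 of the 40 windows (60.0%) held a gained peak, against 32.0% of all protein-coding genes, and in FLI1-KO cells 10 of 40 did, a share close to the 22.9% of all protein-coding genes. Of these, 7 held one in both genotypes, 17 in WT only and 3 in the knockout only, and 13 in neither. By this count IFIT2 and IFIT3 held a gained peak in both, IFIT1 in WT only, and IFIT1B and IFIT5 in neither. For IFIT3 these were different regions, 8 and 9 in WT and 10 in the knockout, and with −log10 q of at least 5 required the cluster had 0 gained peaks in FLI1-KO cells. The list was written with results of these data known and is no independent sample.

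The genes whose promoter levels over the 4 libraries were most like those of IFIT3, the member with the highest WT-IFN-γ promoter, were ARL14EPL, NMI and CLEC2B. Likeness was the Euclidean distance of log2(scaled pileup of the strongest promoter peak + 1), and these stood at 0.189, 0.197 and 0.224 among 19965 other protein-coding genes. The scaled levels of IFIT3 itself were 5.84, 10.2, 5.77 and 5.83. NMI, which encodes an interferon-inducible protein, had 6.47, 10.4, 6.49 and 5.69. Of the 40 listed genes IFITM1 (0.268), HERC5 (0.296) and OAS3 (0.318) were nearest. IFIT1 would have taken place 15 in the ranking, at 0.324, IFIT2 place 508 and IFIT5 place 1287; for IFIT2 the strongest promoter peak was region 3 at the upstream starts, not region 6. With 4 libraries and the same depth behind every gene, this is a description only.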

How the data were processed

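ATAC-seq libraries of HK1 cells, 1 for each genotype with and without IFN-γ, were analysed from the deposited peak lists. Per the labels and the study's methods, the authors trimmed reads (Trimmomatic), aligned them to GRCh38 (Bowtie2 2.3.4.1), removed alignments of low mapping quality, which can remove reads from near-identical stretches of related genes, and duplicates, and called peaks with MACS2 2.1.2. Whether a list is 1 replicate or pooled, precedes or follows the reproducibility filter, and whether transposase offsets were applied is not given in the sources used here. Each deposited peak carries the authors' score, a fold enrichment over local background (a ratio), −log10 p, −log10 q and a summit offset.

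Pileups and backgrounds were solved from fold and −log10 p, which gave a whole number for 100% of peaks; the largest q listed was 0.0499. WT lists began at 8 tags and FLI1-KO lists at 7. Tag density was the lowest background over the shortest peak, which is the tag extension length. It corrects for depth and not for the extension lengths of 249 to 274 bp. Peaks shared a region at 1 bp of overlap, and a promoter peak had its summit at most 3 kb from a start (GENCODE 44). Ratios carry exact conditional binomial intervals, pileups exact Poisson intervals, and the ratio of IFN-γ ratios an approximate interval on log counts. All treat a summit pileup as a plain count and do not allow for its choice as the summit of each peak. The limit for a missing peak is the smallest pileup that reaches the lowest −log10 p of that list over the scaled background. It leaves out counting error and assumes that every such pileup was listed. Calls past 2-fold use one-to-one peaks. No test was run. The members and lists were chosen with earlier results of these data known: all 5 members with every peak, 40 interferon-stimulated genes by counts, and the 3 nearest patterns each in the genome and in that list. The epithelial genes were chosen after the lists were seen. A further motif and a further set of marker genes are not reported here. Alternatives were other −log10 q limits, list sizes, windows, overlaps, scalings and motif distances. Steps were tested on simulated data. Scripts ran under Python 3.11.15 (scipy 1.17.1, numpy 2.4.6, matplotlib 3.10.9, pandas 2.3.3).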

Additional observations from a re-analysis of the deposited data

Results flagged for a closer look

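At regions 1, 2 and 3, all upstream of the canonical IFIT2 start, the IFN-γ ratio of scaled pileup was above 1 in WT, at region 2 barely so, and below 1 in FLI1-KO cells: 1.344 and 0.9249 at region 1, 1.003 and 0.8144 at region 2, and 1.118 and 0.805 at region 3. The interval of each of these single ratios includes 1. With 1 library a group the difference was not tested, and the WT ratio divided by the sgFLI1 ratio was 1.45 (0.895 to 2.36), 1.23 (0.727 to 2.09) and 1.39 (0.827 to 2.33), each with an interval that includes 1. The median over all one-to-one peaks was also lower in FLI1-KO cells (0.910) than in WT (0.953).

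A WT-IFN-γ peak of 11 tags (5.49 to 19.7, chr10:89309466-89309807) lay outside the windows, 195 bp past the annotated end of IFIT2, and none of the other lists held a peak between the windows.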

How the results depend on the processing

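Of 117 recomputed values over 30 results, 107 stayed within the limits set for a change and 10 moved. Of the 60 recomputed ratios, 5 came to lie at 1 or on its other side, all for ratios whose interval includes 1: the 8 shared regions for sgFLI1-IFN-γ over sgFLI1 (1.057 from 0.9665, scaled by the median of shared regions) and for sgFLI1 over WT (from 1.136, below), the IFIT3 promoter for sgFLI1-IFN-γ over sgFLI1 (1 with unscaled tags and 0.9963 above background, from 1.011), and the IFIT5 promoter for sgFLI1-IFN-γ over WT-IFN-γ (0.8125 with unscaled tags, from 1.047). With −log10 q of at least 5 required of every peak, 0 regions were gained in FLI1-KO cells and 0 were lost in WT. With at least 10, WT listed 7 peaks, 0 were gained in FLI1-KO cells, 0 were lost in WT and 0 in FLI1-KO cells. When a summit had to lie inside the other peak, 2 were lost in FLI1-KO cells. With unscaled tags the 8 shared regions gave 0.6729 for sgFLI1-IFN-γ over WT-IFN-γ and 0.9787 for sgFLI1 over WT, which mixes in the unequal depth. With 50 bp on either side of the summit, 4 WT-IFN-γ peaks held an IRF pair. No paired analysis was possible because each group held 1 library and the labels give no replicate numbers. Regions 9, 10 and 14, both lost peaks of region 5, the sgFLI1-IFN-γ peak of region 4 and the lost peak of region 12 carried 10 to 21 tags, so depth limits what their absence from another list shows.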
